A study of Mus musculus with 8 samples.

Results

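Granins and prohormone processing enzymes are the proteins with which endocrine cells pack and cut their hormones. The 10 genes described here are *Chga*, *Chgb*, *Scg2*, *Scg3*, *Scg5*, *Pcsk1*, *Pcsk2*, *Pcsk1n*, *Cpe* and *Pam*. They were found in the deposited count table by the Ensembl identifier that belongs to each symbol. All 10 were present among 53012 identifiers, and all 10 were among the 15474 genes with enough counts to be tested.

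Bulk RNA-seq covered islets from 8 mice at 17 months of age, 4 βIgf1r (labelled CTRL) and 4 βIgf1rKD (labelled KD), with 1 library for each mouse. All 8 mice were Igf1r flox/flox, with loxP sites around exon 3 of *Igf1r*. The βIgf1rKD mice were Ins1-CreERT2+/- and received tamoxifen, 0.075 mg/g body weight, in 5 injections. The βIgf1r mice were Ins1-CreERT2-/- and received corn oil. The interval between the last dose and islet collection was 7 days. The genotype names *Ins1* for the Cre transgene, whereas the study's methods also describe a rat insulin promoter. The Cre acts in β-cells, so that α- and δ-cells of the same islets keep *Igf1r*, and Cre and tamoxifen were not separated by a further control group in these libraries. Both groups held males and females, and the sample labels do not mark the sex of a mouse.

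Peptide hormones are made as longer precursors. In the secretory granule, the convertases PC1/3 (*Pcsk1*) and PC2 (*Pcsk2*) cut a precursor such as proinsulin or proglucagon at pairs of basic residues. Carboxypeptidase E (*Cpe*) then trims these residues from the new ends, and peptidylglycine α-amidating monooxygenase (*Pam*) amidates some peptides, among them amylin. The protein 7B2 (*Scg5*) is the chaperone and inhibitor of PC2, and proSAAS (*Pcsk1n*) is an inhibitor of PC1/3. Chromogranins A and B (*Chga*, *Chgb*), secretogranin II (*Scg2*) and secretogranin III (*Scg3*) are acidic granule proteins that help to form the dense core, and some are themselves cut into peptides.

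The promoters of several of these genes contain the cyclic AMP response element (CRE), the site bound by CREB. Promoter sequences were available for 9 of the 10 genes from RefSeq on GRCm38.p6, *Cpe* being the exception. The core of the CRE, TGACGT, was searched on both strands between 250 bases before and 50 bases after each start. It was found for 5 of the 9 genes, *Chga*, *Chgb*, *Scg2*, *Scg5* and *Pcsk1*, and in 7.51% of all 32851 promoters of this length. The full palindrome TGACGTCA, which holds the core on each strand, was found for *Chgb*, *Scg2* and *Pcsk1*, and in 1.79% of all promoters. The 100 bases before the start are printed for the 4 genes whose core lies within them, 5′ to 3′ on the strand of the gene, with the core or palindrome in capitals.
Chga, chr12:102554841-102554940, plus strand: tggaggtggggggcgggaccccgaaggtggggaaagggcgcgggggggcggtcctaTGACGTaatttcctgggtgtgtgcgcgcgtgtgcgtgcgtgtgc
Chgb, chr2:132781542-132781641, plus strand: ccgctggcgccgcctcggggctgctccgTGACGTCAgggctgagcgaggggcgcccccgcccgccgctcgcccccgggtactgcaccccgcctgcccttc
Scg2, chr1:79440027-79440126, minus strand: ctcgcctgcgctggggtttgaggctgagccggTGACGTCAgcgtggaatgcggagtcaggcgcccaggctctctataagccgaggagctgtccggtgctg
Pcsk1, chr13:75089757-75089856, plus strand: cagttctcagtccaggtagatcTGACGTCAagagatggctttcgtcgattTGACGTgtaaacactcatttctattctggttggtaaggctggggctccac
The first capital lies at -44 for *Chga*, -72 for *Chgb*, -68 for *Scg2* and -78 for *Pcsk1*, counted from the first transcribed base in RefSeq, which can differ from the GENCODE gene starts given with each gene. *Pcsk1* holds a further core at -50. The GC box GGGCGG, on either strand, was found for 7 of the 9 genes and in 35.7% of all promoters. These matches describe letters in the window and not binding.

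Total counts per mouse lay between 21633925 and 42391106, and the counts of the 10 genes lay between 7843 and 607589 in a mouse, so that counting error was small for each of them. *Ins2* was at 90221 to 138537 CPM (counts scaled to library size) after TMM scaling and was the most abundant hormone RNA. RNA of acinar cells, the digestive enzyme cells around the islets, was present in every library. Summed over 15 acinar markers, their share was 2.75% to 19.5% in βIgf1r and 5.63% to 22.7% in βIgf1rKD mice. The 15 islet endocrine markers took 17.7% to 24.4% and 12.1% to 23.96%, and none of the markers was at 0 in all mice. All 15 acinar markers had a log2 fold change above 0, between 0.69 and 1.39, and for 0 of them did edgeR's quasi-likelihood test give an unadjusted p under 0.05. The 11 endothelial markers had log2 fold changes from -0.38 to -0.16 and together took at most 0.0764% of a library. By edgeR 6 of them had an unadjusted p under 0.05, where 1.89% of all genes were lower at this threshold. The groups did not overlap for 5 of the 11, against 1.27% of all genes with lower values. Log2 fold changes were above 0 for 4 of 15 islet endocrine, 8 of 9 leukocyte, 7 of 8 duct and 5 of 9 mesenchymal markers tested. The same held for 4 of 7 α-cell and 1 of 4 δ-cell markers. The targeted gene *Igf1r* was at 53.6 ± 7.21 CPM in βIgf1r and 50.7 ± 4.996 CPM in βIgf1rKD islets (SD, n = 4 each). The log2 fold change of *Igf1r* was -0.08 (standard error 0.11; 95% interval -0.33 to 0.17; edgeR, unadjusted p = 0.483), and the groups overlapped. A lower *Igf1r* RNA level is thus not shown in these libraries. The paper reports lower *Igf1r* RNA by quantitative PCR and lower IGF1R protein by Western blot in βIgf1rKD islets. Those groups had other age ranges and sizes. The *Igf1r* counts cover the whole gene and do not separate exon 3.

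Together the 10 genes made up 2.27% to 4.32% of all counts of a library. The shares were 4.13%, 3.73%, 3.03% and 3.28% in the βIgf1r mice M148, M151, M152 and M153. In the βIgf1rKD mice M145, M146, M149 and M150 they were 2.27%, 4.32%, 2.33% and 3.01%. The highest and the lowest shares both belonged to βIgf1rKD mice. Across the 8 mice the 3 libraries with the least acinar RNA, M148, M151 and M146, had the highest shares. With the acinar markers left out of the total, the shares ran from 3.74% to 4.25% in βIgf1r and from 2.84% to 4.58% in βIgf1rKD mice, and the groups overlapped.

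**Figure D1:**
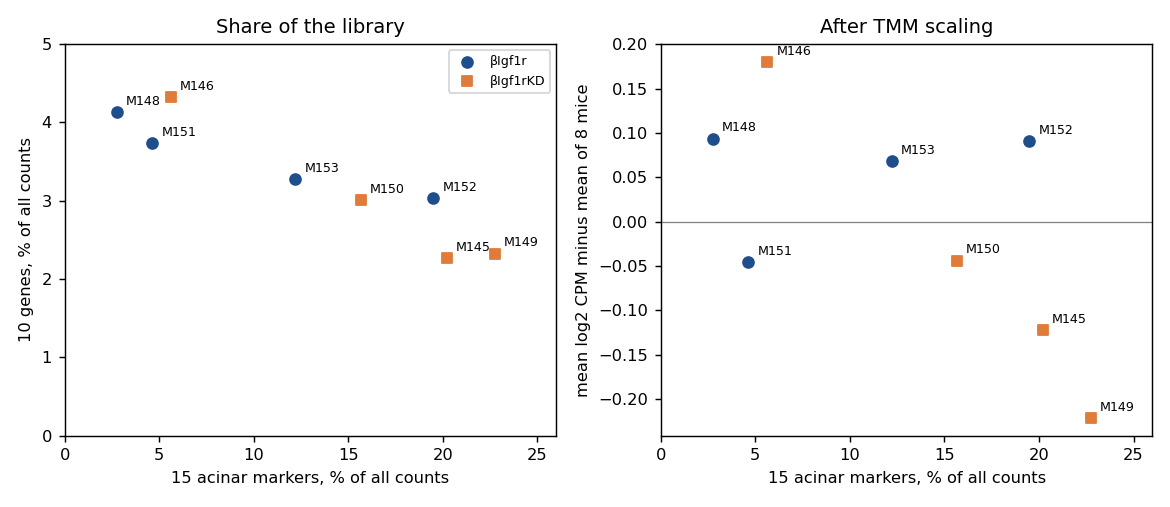
Each point is a mouse, with the share of counts taken by 15 acinar markers on the x axis. The left panel gives the share of counts of the 10 genes, from 2.27% in M145 to 4.32% in M146, and the right panel their mean deviation in log2 CPM from the mean of the 8 mice after TMM scaling, from -0.22 in M149 to 0.18 in M146.

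The genes differ far more from each other than between mice. Per length, as TPM (transcript abundance scaled for length and library size) with the union of exons of GENCODE M21 as gene length, *Chga* was the highest in every mouse, with a mean of 10724 TPM over the 8 mice and rank 20 among all genes. *Scg2*, at 5269.9 TPM, and *Cpe*, at 2409 TPM, followed in all 8 mice. *Chgb* (1009.5 TPM), *Pcsk2* (949.9 TPM), *Scg3* (845 TPM), *Scg5* (725 TPM) and *Pcsk1n* (545 TPM) formed a middle group in which neighbours changed places between mice. *Chgb* was above *Pcsk2* in 4 of 8 mice and *Pcsk2* above *Scg3* in 6. *Pcsk1* (149.3 TPM) and *Pam* (79.7 TPM) were the lowest in every mouse. PC2 RNA was thus more abundant than PC1/3 RNA in all 8 mice.

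The place of *Pam* depended on the length used. Its 15 annotated transcripts cover 11892 bases together, against 4102 bases in the longest transcript. With the longest transcript of each gene as length, *Pam* was at 188 TPM, above *Pcsk1* at 135 TPM in all 8 mice. *Pcsk2* then reached 1294 TPM and lay above *Chgb*, at 819.7 TPM, in all 8 mice. Of the 9 neighbouring pairs in the order, 5 held in all mice with the union of exons and 7 with the longest transcript.

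**Figure D2:**
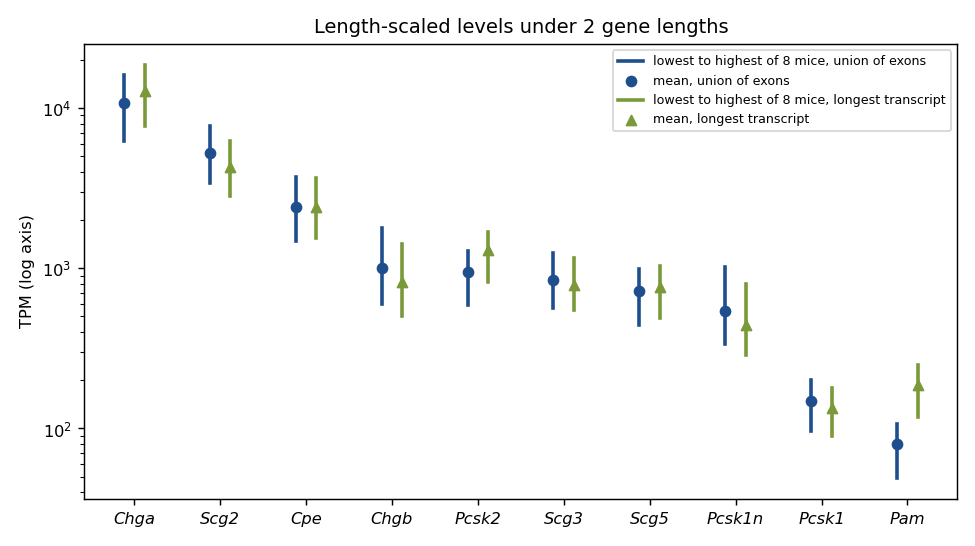
Length-scaled level of each gene in TPM on a log axis, ordered by the mean with the union of exons as length, with the longest transcript as length beside it. Points are means of the 8 mice and lines run from the lowest to the highest mouse. *Chga* exceeds *Pam* by over 2 orders of magnitude with the union of exons.

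The comparison of βIgf1rKD with βIgf1r islets asks whether the RNA of the granule machinery differs between old mice with and without the induced *Igf1r* knockdown in β-cells. By the quasi-likelihood test of edgeR, 0 of the 10 genes reached an unadjusted p under 0.05, where 4.12% of all genes tested did. This test sets the difference against a spread that edgeR estimates from these mice and from a trend over all genes. Its standard errors can thus differ from those of the 4 and 4 mice taken alone. For *Cpe* the standard error of the difference was 0.18. The SD of log2 CPM among single mice was 0.17 in βIgf1r and 0.09 in βIgf1rKD mice (n = 4 each). A mean of 4 mice varies less than single mice, so that edgeR's standard error is larger than these SDs alone would give. The adjusted p-values of edgeR over all 15474 genes lay between 0.987 and 0.9996, with 0 of 10 genes and 0 of all genes under 0.05. Log2 fold changes ran from -0.27 to 0.12. They were below 0 for 7 of the 10 genes, against 47.7% of all genes tested. Of the 144 genes at least as abundant as the least abundant of the 10, 47.2% were below 0. The median of the 10 was -0.09, against 0.01 over all genes. Of the 15 islet endocrine markers 11 were below 0, with a median of -0.14. On the same counts 4 genes, *Scg2*, *Scg5*, *Cpe* and *Pam*, had an unadjusted p under 0.05 by DESeq2, and 3, *Scg5*, *Cpe* and *Pam*, by limma-voom, all with lower values in βIgf1rKD islets. By limma-voom 3.65% of the 15474 genes were at that threshold, 2.07% with lower values in βIgf1rKD islets. DESeq2 was run without the filter on low counts, so that its shares are of 27623 genes. They were 2.95%, and 1.21% with lower values, and are not on the same base as the other shares. Of the 144 abundant genes, the same set for each method, 1.39% passed the unadjusted threshold by edgeR, 9.03% by DESeq2 and 5.56% by limma-voom. After adjustment 0 of the 10 genes were under 0.05 by DESeq2 or limma-voom, against 0.0217% of 27623 and 0.00646% of 15474 genes. The lowest adjusted p of the 10 was 0.999 by DESeq2 and 0.998 by limma-voom. With *Xist*, a transcript of the inactive X chromosome, as a covariate for the mix of sexes, edgeR gave 1 gene, *Pam*, an unadjusted p under 0.05, where 7.39% of all genes passed, 2.68% with lower values. Fewer endocrine cells in a preparation and less RNA per endocrine cell cannot be told apart in bulk islets.

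**Figure D3:**
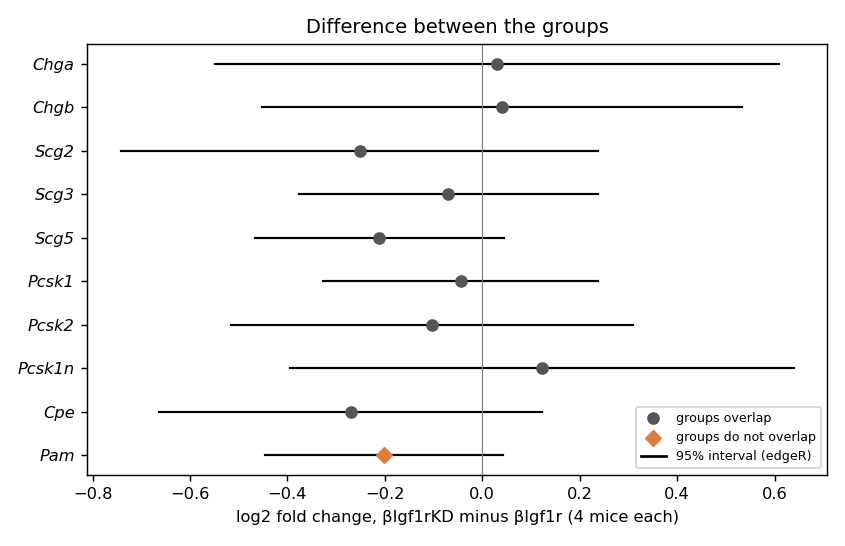
Log2 fold change of each gene, βIgf1rKD minus βIgf1r, with its 95% interval from edgeR's quasi-likelihood test (4 mice in each group). Every interval includes 0. *Pam*, marked by a diamond, is the gene whose groups do not overlap.

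*Pam* separated the groups. This gene lies on the minus strand of chromosome 1, from 97795114 to 98095646 (GRCm38, as for the other genes), and its longest transcript, Pam-202, has 26 exons. Its level was 499, 495, 482 and 499 CPM in the βIgf1r mice M148, M151, M152 and M153. In the βIgf1rKD mice M145, M146, M149 and M150 it was 449, 437, 366 and 465 CPM. Each βIgf1rKD mouse lay below each βIgf1r mouse, and M149 lay lowest. The log2 fold change was -0.20 (standard error 0.11; 95% interval -0.45 to 0.04), or 13.1% lower when written as a percentage (permutation test on log2 CPM, exact and two-sided as all of those given, p = 0.0286, the smallest that 4 mice against 4 allow). By edgeR's test the unadjusted p was 0.0943. Without M149 the log2 fold change of *Pam* was -0.13 (edgeR, unadjusted p = 0.238). Groups without overlap were found for this 1 gene of the 10 and for 2.22% of all genes tested, or 1.27% with lower values in βIgf1rKD islets. With the acinar marker score as a covariate the log2 fold change of *Pam* was -0.18 (edgeR, unadjusted p = 0.159).

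*Cpe*, on chromosome 8 from 64592542 to 64693054 (minus strand), had the lowest fold change of the 10. It was at 3773, 2844, 3352 and 3379.5 CPM in the βIgf1r mice M148, M151, M152 and M153. The βIgf1rKD mice M145, M146, M149 and M150 were at 2687, 2975, 2595 and 2812 CPM. Here 3 of 4 βIgf1rKD mice lay below all βIgf1r mice, and M146 lay above M151. Its difference was -0.27 on the log2 scale (standard error 0.18; exact permutation test, p = 0.0571). The unadjusted p for *Cpe* by edgeR's test was 0.156. The share of all genes at or below this permutation p is not given here.

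*Scg5*, the partner of PC2, lies on chromosome 2 from 113776362 to 113829121 (minus strand). Its level was 607, 600.5, 549 and 610.5 CPM in M148, M151, M152 and M153. It was 483, 547, 456 and 558 CPM in M145, M146, M149 and M150. Again 3 of 4 βIgf1rKD mice were below all βIgf1r mice, and M150 was above M152. M152 stood apart from the other βIgf1r mice. On the log2 scale the difference was -0.21 (standard error 0.11; exact permutation test, p = 0.0571). The unadjusted p for *Scg5* by edgeR's test was 0.0949, and the share of all genes at or below this permutation p is again not given.

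For both convertases the difference was smaller than the standard error that edgeR gave it. *Pcsk2*, on chromosome 2 from 143546156 to 143816285 (plus strand), had nearly the same level in the βIgf1r mice, at 3814, 3782, 3788 and 3713 CPM in M148, M151, M152 and M153. In the βIgf1rKD mice it was more spread out, with 3354, 4069, 2947 and 3683 CPM in M145, M146, M149 and M150. All 4 βIgf1rKD mice lay outside the βIgf1r range, 3 of them below it and M146 above it. The log2 fold change of -0.10 had a standard error of 0.18, and was -0.03 without M149, -0.18 without M146 and -0.04 with the acinar marker score as a covariate. *Pcsk2* overlaps the antisense gene *Pcsk2os1* by 260 exonic bases, 3.29% of its exons, and *Pcsk2os2* by 99. Reads of this stretch could have been assigned to either gene, since the strand setting of the counting is not given in the sources used here. *Pcsk2os1* had 2314 counts over all mice together and *Pcsk2os2* 0, against 67696 to 149349 for *Pcsk2* in a single mouse.

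*Pcsk1*, on chromosome 13 from 75089826 to 75134861 (plus strand), was at 438, 369, 388 and 463 CPM in M148, M151, M152 and M153. It was at 389.6, 444, 341 and 433 CPM in M145, M146, M149 and M150. The ranges largely coincided, with M149 alone below all βIgf1r mice. The log2 fold change was -0.04 (standard error 0.13), and its 95% interval of -0.33 to 0.24 leaves room for a change of 20.2% downwards or 18.0% upwards.

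*Pcsk1n*, on the X chromosome from 7919822 to 7924410 (plus strand), varied the most among mice. It was at 489.6, 540.1, 726 and 466 CPM in M148, M151, M152 and M153. It was at 514, 897, 541 and 467 CPM in M145, M146, M149 and M150. A single mouse in each group, M152 and M146, was well above the others, and the rest of both groups lay between 466 and 541 CPM. The log2 fold change of 0.12 (standard error 0.23) turned to -0.13 without M146.

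The chromogranins showed the same high mouse. *Chga*, on chromosome 12 from 102554969 to 102565028 (plus strand), was at 13726, 14089.7, 15138 and 13822 CPM in M148, M151, M152 and M153. It was at 11977, 17916, 13118 and 14985 CPM in M145, M146, M149 and M150. The βIgf1rKD mice lay on both sides of the βIgf1r mice, 2 below and M146 above all of them. *Chgb*, on chromosome 2 from 132781278 to 132795079 (plus strand), was at 1269, 1186, 1566 and 1252 CPM in M148, M151, M152 and M153. It was at 1176, 1974, 1037 and 1237 CPM in M145, M146, M149 and M150. M146 was again highest and M152 next. Log2 fold changes were 0.03 (standard error 0.26) for *Chga* and 0.04 (standard error 0.22) for *Chgb*, and without M146 they were -0.09 and -0.20.

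The secretogranins followed another pattern. *Scg2*, on chromosome 1 from 79434669 to 79440120 (minus strand), was at 7570.0, 5689, 6629 and 8255 CPM in M148, M151, M152 and M153. It was at 6189.8, 6321, 5406 and 5716 CPM in M145, M146, M149 and M150. M153 and M148 were the highest, and all 4 βIgf1rKD mice lay below the mean of the βIgf1r mice, although 3 of them were above M151. This gave -0.25 on the log2 scale (standard error 0.22; exact permutation test, p = 0.143), and edgeR's test gave an unadjusted p of 0.277. *Scg3*, on chromosome 9 from 75643189 to 75684056 (minus strand), was at 1333, 1037, 1081 and 1171 CPM in M148, M151, M152 and M153, and all 4 βIgf1rKD mice, from 1066 to 1162 CPM, lay inside this range. Its log2 fold change was -0.07 (standard error 0.14). For *Chga*, *Scg3*, *Pcsk1*, *Pcsk2* and *Pcsk1n* the exact permutation test gave p = 0.914, 0.571, 0.714, 0.314 and 0.629. The p of *Chgb* by this test was larger still.

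**Figure D4:**
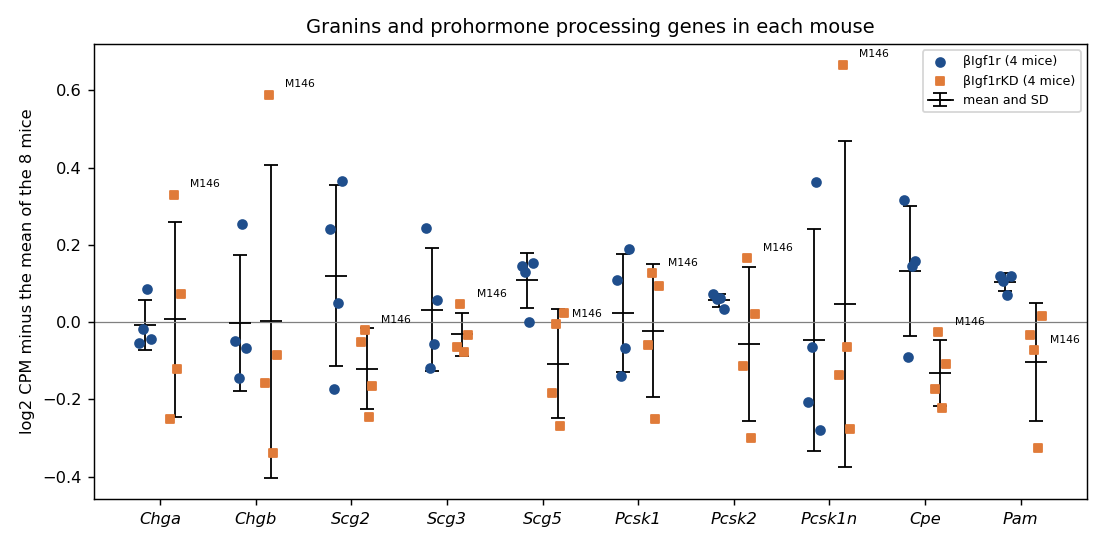
Log2 CPM of each gene in each mouse, as the difference from that gene's mean over the 8 mice, with the mean and SD of each group (4 mice each). The βIgf1rKD mouse M146 is labelled, and lies 0.33, 0.59 and 0.67 above the mean for *Chga*, *Chgb* and *Pcsk1n* but -0.03 and -0.07 from it for *Cpe* and *Pam*.

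M146 was the highest mouse for 4 of the 10 genes, *Chga*, *Chgb*, *Pcsk2* and *Pcsk1n*, and M149 the lowest for 7. M145 and M149, which had 20.2% and 22.7% of their counts in acinar markers, were below the mean of the 8 mice for all 10 genes. M146, at 5.63%, was above it for 6, and M152 was above it for 8 with 19.5% acinar counts. Without M146 all 10 log2 fold changes were below 0, with a lowest edgeR adjusted p of 0.861. The share of all genes below 0 in that fit is not given here. Leaving out M146 also removes the βIgf1rKD library with the least acinar RNA. M145, M149 and M150 had 15.7% to 22.7% acinar counts, against 2.75% to 19.5% in βIgf1r mice. The within-group SD of log2 CPM had a median of 0.15 over the 10 genes, against 0.20 over all genes tested. It ran from 0.11 for *Pam* to 0.36 for *Pcsk1n*, and was larger in βIgf1rKD than in βIgf1r mice for 7 of the 10 genes, against 51.8% of all genes tested.

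How closely the genes moved together over the mice was described by the root mean square (RMS) difference of their log2 CPM, each centred on its own mean. Over the 45 pairs the closest was *Scg5* with *Pam*, with an RMS difference of 0.07, followed by *Scg5* with its partner *Pcsk2*, at 0.09. The farthest pair was *Scg2* with *Pcsk1n*, at 0.40. *Chgb* lay closer to *Chga* (0.16) and *Pcsk1n* (0.16) than to *Scg2* (0.30). The part of promoter motifs in these distances was not tested. The 3 genes that were high in M146 beside *Pcsk2* have the highest GC content of the 10 in their longest transcript, 58.4% for *Chga*, 57.3% for *Pcsk1n* and 53.9% for *Chgb*. The other 7 lie between 40.6% for *Pcsk1* and 49.9% for *Pam*, and the median over the genes tested was 49.7%. The part of base composition in the pattern was not tested.

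Outside the 10 genes, the 5 whose centred log2 CPM came closest to the mean profile of the 10 were *Dnajc16* (RMS difference 0.02), *Ildr1* (0.03), *Gnb5* (0.03), *Rtn2* (0.04) and *Sept5* (0.04). They were found among 8654 genes with a mean of at least 10 CPM, whose median difference was 0.18. *Ildr1* encodes a receptor of the tricellular junction and *Gnb5* a G-protein β subunit. In each of the 5, M146 was the highest mouse and M149 was below the mean of the 8 mice. This follows from their choice by closeness to the mean profile and is not a separate result.

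Ratios within a library do not depend on its size or on RNA of cells that express neither gene. They can still vary with the mix of islet cells that express both genes at different levels. For 4 pairs of functional partners the log2 ratio of counts was compared. *Pcsk1* to *Pcsk2* was -3.12, -3.36, -3.29 and -3.002 in M148, M151, M152 and M153. It was -3.11, -3.20, -3.11 and -3.09 in M145, M146, M149 and M150. All βIgf1rKD mice lay inside the βIgf1r range, and the means differed by 0.07 (exact permutation test, p = 0.400, and p = 0.800 after adjustment for 4 ratios). This difference was 0.01 without M151 and 0.13 without M153. M151 had the lowest ratio and the largest share of counts in 7 α-cell markers, 4.90%, against 1.07% to 2.91% in the other mice. The part of the cell mix in this ratio was not tested.

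*Scg5* to *Pcsk2*, the chaperone to its enzyme, was -2.67 ± 0.08 in βIgf1r and -2.78 ± 0.09 in βIgf1rKD mice (mean and SD of 4 mice; by exact permutation, p = 0.143 and adjusted p = 0.571). M145 and M146 lay below all βIgf1r mice, and the difference of -0.10 was -0.06 without M146. *Pcsk1n* to *Pcsk1*, the inhibitor to its enzyme, ran from 0.01 in M153 to 0.91 in M152 among βIgf1r mice and from 0.11 in M150 to 1.02 in M146 among βIgf1rKD mice. The difference of 0.14 was well inside this spread (exact permutation test, p = 0.629; adjusted, p = 0.838). *Chgb* to *Chga* was -3.44 ± 0.12 and -3.45 ± 0.22 (SD, n = 4 each), a difference of -0.01 (exact permutation test, p = 0.943; adjusted, p = 0.943).

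**Figure D5:**
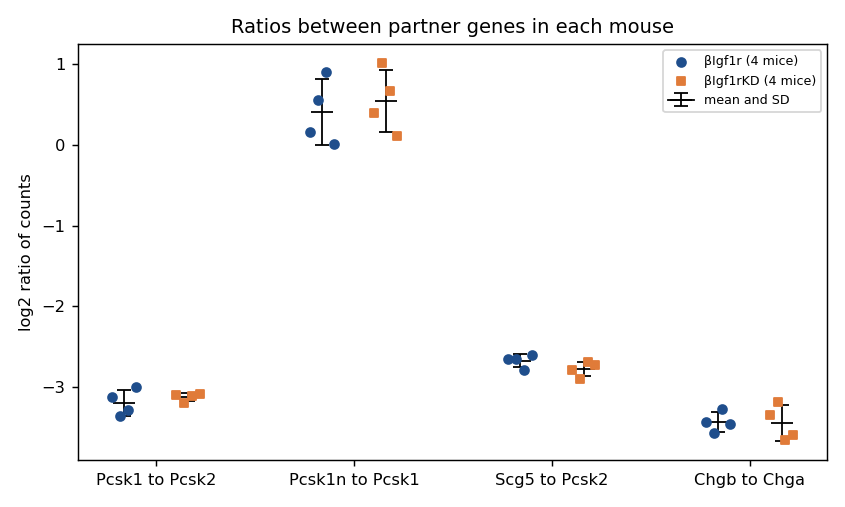
Log2 ratio of counts of 4 pairs of partner genes in each mouse, with the mean and SD of each group (4 mice each). The groups overlap for all 4 ratios, and *Pcsk1n* to *Pcsk1* spreads from 0.01 to 1.02.

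The rest of the pathway was described with 4 lists written from general knowledge, 65 genes in all, of which 63 were tested. *Adcyap1* and *Cpz* had too few counts. By edgeR 2 of the 63 genes, *Gal* and *Ins1*, reached an unadjusted p under 0.05, or 1 in each direction, where 2.23% of all genes were higher and 1.89% lower at this threshold. By edgeR 0 had an adjusted p under 0.05, and by DESeq2 1, *Ins1*. The median log2 fold change of the 63 was -0.04, with 22 above and 41 below 0.

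Among 13 prohormones and other cargo, *Ins1*, an insulin gene, was at 41092 ± 7908 CPM in βIgf1r and 21699 ± 4567 CPM in βIgf1rKD mice (SD, n = 4 each). Its log2 fold change was -0.92 (standard error 0.33; edgeR, unadjusted p = 0.0204 and adjusted p = 0.987), and each βIgf1rKD mouse lay below each βIgf1r mouse. *Ins1* no longer reached an unadjusted p under 0.05 by edgeR when M153, M145 or M150 was left out. *Ins1* is the locus named in the Cre genotype, which differs between the groups, and reads can be shared with its paralog *Ins2*. *Gal*, which encodes galanin, was at 1.22 to 4.49 CPM in βIgf1r and 4.999 to 16.5 CPM in βIgf1rKD mice. The change in *Gal* was 1.87 on the log2 scale (standard error 0.47; edgeR, unadjusted p = 0.00288 and adjusted p = 0.987). The substrates *Ins2*, *Iapp*, *Gcg* and *Sst* had log2 fold changes of -0.08, -0.23, -0.14 and -0.25, with standard errors of 0.41, 0.28, 0.45 and 0.22.

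Of 14 other convertases and peptidases, such as furin and the carboxypeptidases of other compartments, 0 passed the unadjusted threshold, with 7 log2 fold changes above and 7 below 0. Of 16 genes of the granule membrane and its acidification 0 passed, with 3 above and 13 below 0, between -0.20 and 0.08. Of 20 genes of granule biogenesis and sorting 0 passed, with 9 above and 11 below 0, between -0.14 and 0.17. The lists' medians were -0.01, -0.06 and -0.02, against 0.01 over all genes tested.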

How the data were processed

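The authors deposited 1 table of estimated counts per Ensembl gene, with 1 column for each of 8 mice. The submitters' processing notes name fastp, kallisto and the build GRCm38, and the libraries were stranded mRNA; versions, the strand setting and the annotation release are not given in the sources used here. Between 12.4% and 14.7% of the values in a mouse are not whole, and counts were rounded. Genes were named by identifier from GENCODE M21 (51906 of 53012 matched). In R 4.3.3, edgeR 4.0.16 kept 15474 genes by its default filter, requiring 10 counts in 4 mice or more and 15 in total. TMM factors and the quasi-likelihood test with Benjamini-Hochberg adjustment over all genes followed. Library sizes for CPM were TMM-scaled, and 2 was the prior count on the log2 scale. TPM were computed from the counts and GENCODE lengths. Standard errors were derived from edgeR's F statistics, and are not those of the 8 mice alone. Figures were drawn with matplotlib 3.10.9.

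The mice were taken as separate animals from their numbers in the labels, and no 2 libraries of a group agreed within counting noise, with a chi-square per degree of freedom of at least 72.9. The members and lists were chosen with earlier results of these data known. The genes named are the 10 members, *Igf1r*, the main islet hormones, pathway genes at an unadjusted p under 0.05 (at most 5 in each direction) and the 5 genes closest to the mean profile, with the closest and the farthest pair of members. Other pairs were chosen after their values were seen. *Adcyap1* and *Cpz* are named as the genes not tested. As alternatives, DESeq2 1.42.0, limma-voom (limma 3.58.1), size factors by RLE, no filter, 10 counts in every mouse, the acinar score or *Xist* as a covariate, library sizes without acinar and hormone genes, and leaving out each mouse were tried. The other experiments of the study were not analysed here.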

Additional observations from a re-analysis of the deposited data

Results flagged for a closer look

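1 value stood apart by Dixon's test, in which the gap between an extreme mouse and its neighbour is set against the range of the 4 mice of a group. *Scg5* in the βIgf1r mouse M152 was at 9.10 on the log2 CPM scale, against 9.23 to 9.25 in M148, M151 and M153, a gap of 0.844 of the range. It was 1 of 28 sets of 4 mice examined, where chance gives about 1.40. Without M152 the log2 fold change of *Scg5* was -0.25 in place of -0.21. M152 had 19.5% of its counts in acinar markers, and the other 3 βIgf1r mice 2.75% to 12.2%; the part of acinar RNA in this value was not tested.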

How the results depend on the processing

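No paired analysis was possible because no mouse number occurs in both groups. By edgeR 637 genes reached an unadjusted p under 0.05. This count was 1098 with no filter, 393 with the acinar score and 1143 with *Xist* as a covariate, and 383 to 1114 with a mouse left out, lowest without M148 and highest without M152. It was 402 without M153 and 960.0 without M146. At an adjusted p under 0.05 edgeR called 0 genes, DESeq2 6 and limma-voom 1. Of the 10 genes, 0 passed the unadjusted threshold by edgeR with any mouse left out, 1 (*Pam*, log2 fold change -0.27, edgeR unadjusted p = 0.0432) with *Xist* as a covariate, 4 by DESeq2 and 3 by limma-voom. Of the pathway genes, 1 to 4 passed it with a mouse left out, 4 without M151 or M152 and 1 without M153 or M145, and DESeq2 called 1, *Ins1*, after adjustment. *Ins1* lost its unadjusted edgeR call without M153, M145 or M150.

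Small fold changes turned sign. With a mouse left out, log2 fold changes ran from -0.088 to 0.11 for *Chga*, -0.20 to 0.15 for *Chgb*, -0.12 to 0.0054 for *Scg3*, -0.096 to 0.027 for *Pcsk1* and -0.13 to 0.28 for *Pcsk1n*. The sign turned without M146 for *Chga* (-0.088), *Chgb* (-0.20) and *Pcsk1n* (-0.13), without M151 for *Chgb* (-0.0069), without M148 for *Scg3* (0.0054), and without M153 (0.010) or M149 (0.027) for *Pcsk1*. It also turned for *Chgb* with *Xist* as a covariate (-0.022) and for *Pcsk1* with the acinar score (0.0014). *Pcsk2* ran from -0.18, without M146, to -0.03, without M149, *Pam* from -0.24 to -0.13, without M149, and *Scg3* was -0.01 with the acinar score. *Pcsk1* to *Pcsk2* ran from 0.01, without M151, to 0.13, without M153, and *Scg5* to *Pcsk2* from -0.14 to -0.06, without M146. *Pcsk1n* to *Pcsk1* ran from -0.016, without M146, to 0.31. *Chgb* to *Chga* ran from -0.10 to 0.059, turning without M152 (0.043), M149 (0.059) or M150 (0.039) and with the acinar score (0.013). The causes were not tested. Depth limits none of the 10 genes, but 4 mice in each group leave 95% intervals that reach from -0.74 to 0.64 on the log2 scale.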
